A study of Rattus norvegicus with 3 samples.

Results

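Mitotic radial glia of the rat embryonic cortex were chosen in 3 droplet-based single-cell RNA sequencing libraries by their counts of unique molecular identifiers (UMIs), each of which marks 1 captured RNA molecule. Barcodes with fewer than 1000 detected genes, or with over 10% mitochondrial UMIs, were dropped, and the others are called kept cells. A kept cell was a member if Sox2, Pax6, Hes1 and Hes5 together had at least 5 UMIs, Eomes had at most 1, Neurod2 and Neurod6 together had at most 2, and Top2a, Cenpf, Mki67 and Ccnb1 together had at least 10. These limits left 2870 members of 15327 kept cells. All libraries were made from wildtype Rattus norvegicus cerebral cortex, as freshly prepared primary cells with no treatment named, and they are labelled E14, E16 and E18 for the embryonic day. Each label has 1 library, and the strain, the sex, the number of embryos and any pooling are not given in the sources used here. No difference between labels therefore has a replicate check, no p-value or standard error is given, and every interval below covers counting error only.

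Radial glia are the neural stem cells that line the ventricle of the developing cortex. Their nuclei move between the ventricular surface and the depth of the ventricular zone during the cell cycle and divide at the surface. A radial glial cell can divide to give more radial glia, an intermediate progenitor that switches on Eomes, or a neuron. Sox2 and Pax6 are transcription factors that hold the progenitor state, and Hes1 and Hes5 are transcription factors that Notch signalling switches on. Top2a untangles sister chromatids, Cenpf is a kinetochore and centromere protein, Mki67 coats mitotic chromosomes, and Ccnb1 is the cyclin that drives entry into mitosis with its kinase Cdk1. Transcripts of these genes build up from late S phase through G2, so a cell rich in them need not be in mitosis itself.

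The members were 148 cells of 4444 kept in the library labelled E14, 1863 of 5193 in that labelled E16 and 859 of 5690 in that labelled E18. Their share of kept cells was 3.33% (exact Clopper-Pearson 95% interval 2.82 to 3.9), 35.9% (34.6 to 37.2) and 15.1% (14.2 to 16.1) in the same order. Among all cells that met the Sox2, Pax6, Hes and exclusion limits, called progenitors here, the members made up 49.2% of 301 (43.4 to 55), 63.7% of 2926 (61.9 to 65.4) and 54.3% of 1581 (51.8 to 56.8). The library labelled E16 held the largest share on both denominators, but with at least 2000 genes and at most 5% mitochondrial UMIs per cell the share of progenitors was 65.7% (56 to 74.6) under E14 and 66.3% (64.4 to 68.1) under E16. The remaining 1938 progenitors, with fewer than 10 mitotic UMIs, are called other progenitors: 153, 1063 and 722 cells. Cells with at least 2 Eomes UMIs, at most 2 of Neurod2 and Neurod6 together and the same mitotic minimum are called mitotic Eomes cells. They needed no minimum of Sox2, Pax6 and Hes UMIs and numbered 28, 230 and 115.

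The label was checked against the 7 genes that name the class. Sox2 was found in 98.6%, 99.5% and 99.5% of members and Pax6 in 97.3%, 91.4% and 95.1%. Members without a UMI of either numbered 2, 3 and 1. Hes1 was found in 78.4%, 76.8% and 84.2% and Hes5 in 75%, 64.7% and 64.3%, so the Hes genes were the less often detected part of the progenitor sum. Top2a was found in 91.2%, 93.5% and 90.2%, Cenpf in 99.3%, 98.3% and 97.9%, and Mki67 in 98%, 98.9% and 98.4%. The rule used all of these genes, so the shares describe the choice and support nothing.

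Members had a median of 16381.5, 16462 and 15306 UMIs per cell, against 11141, 11606 and 10866.5 in other progenitors, and whole libraries held 62740631, 80974234 and 73727823 UMIs. No member barcode was shared between libraries, although 12 to 17 of all barcodes, kept or dropped, were shared between each pair. Genes known to be high in early or in late cortical progenitors did not follow the order of the labels: of 20 late genes measured in members, 17 were highest under E14, next under E18 and lowest under E16. Directions between libraries are therefore given by label only and are not read as time. A few members also carried markers of other cells. The member with the most UMIs in the library labelled E14 held 113276 UMIs, 4.34% of all UMIs of that library's members, and 1080 of them were endothelial. In the library labelled E18, the 3 members with the most UMIs had 745 endothelial, 10133 choroid plexus and 6630 choroid plexus UMIs. Several values below are given with and without cells that carried markers of other classes.

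Promoters are shown first because genes expressed in G2 and mitosis are known to share 2 short elements: the cell cycle genes homology region (CHR), searched here as TTTGAA or TTCGAA, and the CCAAT box, searched as CCAAT, each on both strands. The DREAM and MuvB complexes are known to bind the CHR, and NF-Y to bind the CCAAT box. Of the 4 mitotic genes of the rule and the 10 genes whose lowest ratio of members to other progenitors over the libraries was highest, 11 have a promoter in the RefSeq table of assembly GRCr8. Ube2c and Pimreg are named only. The runs below are 120 bases before to 20 bases after the annotated start, on the gene's strand, with CHR and CCAAT letters in capitals (TTCAAA and ATTGG are the same letters on the other strand). Mki67, Top2a, Cenpf and Ccnb1 are shown because they chose the cells, and Plk1, Hmmr and Prc1 as examples from the 10 highest.
Top2a, chr10:84473074-84473213, minus strand: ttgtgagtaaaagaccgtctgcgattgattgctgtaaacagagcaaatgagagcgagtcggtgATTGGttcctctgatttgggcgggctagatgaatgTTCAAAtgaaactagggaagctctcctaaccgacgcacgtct
Cenpf, chr13:103760867-103761006, minus strand: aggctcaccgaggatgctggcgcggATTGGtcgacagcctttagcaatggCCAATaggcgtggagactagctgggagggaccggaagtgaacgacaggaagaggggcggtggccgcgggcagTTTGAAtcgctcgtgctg
Mki67, chr1:199952574-199952713, minus strand: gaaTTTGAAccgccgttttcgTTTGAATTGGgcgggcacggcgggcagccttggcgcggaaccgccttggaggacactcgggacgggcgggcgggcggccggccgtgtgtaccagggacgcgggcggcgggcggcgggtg
Ccnb1, chr2:33655206-33655345, minus strand: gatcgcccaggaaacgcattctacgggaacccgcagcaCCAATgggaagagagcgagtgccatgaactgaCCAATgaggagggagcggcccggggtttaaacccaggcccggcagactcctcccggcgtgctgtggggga
Plk1, chr1:186147538-186147677, plus strand: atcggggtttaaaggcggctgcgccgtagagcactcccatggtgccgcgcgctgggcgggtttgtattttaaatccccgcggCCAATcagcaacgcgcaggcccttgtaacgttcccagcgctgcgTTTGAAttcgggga
Hmmr, chr10:25665196-25665335, minus strand: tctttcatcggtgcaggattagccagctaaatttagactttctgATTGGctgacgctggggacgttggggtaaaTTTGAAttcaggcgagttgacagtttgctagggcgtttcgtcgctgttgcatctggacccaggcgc
Prc1, chr1:143659361-143659500, plus strand: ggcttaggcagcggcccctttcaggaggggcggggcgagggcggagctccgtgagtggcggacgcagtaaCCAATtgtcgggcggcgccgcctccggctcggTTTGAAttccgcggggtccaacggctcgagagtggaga

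In the Top2a window the CHR letters began at position -22, with the start counted as 1 and no base as 0. A CCAAT box lay upstream of them. A second CHR match of Top2a, at -152, lies outside the run shown. The Plk1, Hmmr and Prc1 windows had the same order, with CHR letters at 7, -46 and -18. In the Mki67 window the second CHR match, at -99, overlaps the CCAAT letters by 1 base. Ccnb1 had 2 CCAAT matches and no CHR letters in this window, which says only that these letters are not there. Over 300 bases per promoter (250 before and 50 after the start), CHR letters were found in 3 of the 4 mitotic rule genes and in 5 of the 7 matched genes among the 10 highest, against 19.5% of all 27457 promoters. CCAAT letters were found in 4 of 4 and in 6 of 7, against 37.7% of all promoters. The shown Plk1, Hmmr and Prc1 carry both elements, and not all of the 10 highest do. Aurka had neither element and Kif11 no CHR letters in its 300 bases, and both matches of Ckap2l lie downstream of the window. The lists by role had CHR letters in 9 of 12 promoters of mitotic entry genes, 16 of 23 of spindle genes, 7 of 8 of checkpoint genes and 12 of 21 of kinetochore genes. In the list of S phase genes, whose transcripts peak before those of mitotic genes, the count was 4 of 28. CCAAT letters were in 15 of 28 S phase promoters (53.6%). The mitotic lists ranged from 50% of checkpoint and 52.4% of kinetochore promoters through 55.6% of cytokinesis, 66.7% of entry, 69.2% of condensation and 69.6% of spindle promoters to 88.9% of anaphase and exit promoters.

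The mitotic limit cut through a broad distribution. Members had a median of 35, 36 and 37 UMIs of the 4 mitotic genes, with a lower quartile of 19 in each library and upper quartiles of 90, 67 and 76. Just inside the limit, at 10 to 11 mitotic UMIs, stood 7, 104 and 50 cells, and just outside it, at 8 to 9, stood 9, 135 and 58. A wider list of 108 mitotic genes summed to 12958, 14127 and 15715 counts per 1000000 UMIs (CPM) just inside the limit and to 14913, 12556 and 14424 CPM just outside. Cells on either side of the limit were thus of similar level in this sum, and under E14 the few cells just outside had the higher value. At 40 or more mitotic UMIs the same list reached 34607, 25100 and 29736 CPM.

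**Figure D1:**
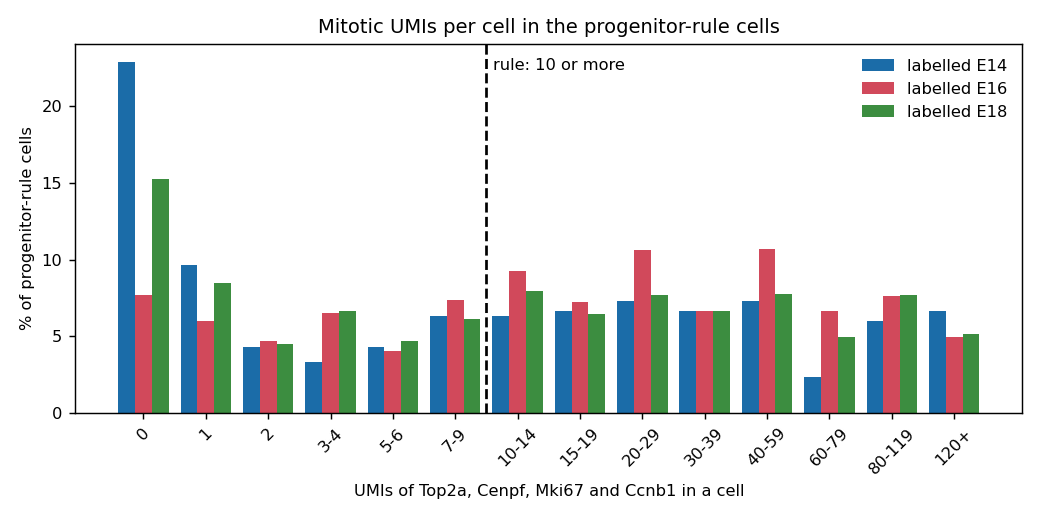
Share of progenitors (y axis, % of the library's cells that meet the Sox2, Pax6, Hes and exclusion limits) by their summed UMIs of Top2a, Cenpf, Mki67 and Ccnb1 (x axis, UMIs per cell), with bars for the libraries labelled E14, E16 and E18 and a dashed line at the limit of 10. Members stand right of the line and make up 49.2%, 63.7% and 54.3% of progenitors, and no gap separates them from the cells left of it.

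Values in the next paragraphs are CPM of UMIs summed over the cells of a class in a library, in the order E14, E16 and E18, and ratios are log2 ratios with 1 CPM added. A gene was counted as past the fold at 2-fold or more. Since the rule chose members by mitotic genes, the comparison of members with other progenitors is a description and supports nothing. Of 10151 genes with a mean of at least 5 CPM, 460 (4.53%), 227 (2.24%) and 332 (3.27%) were at least 2-fold higher in members. At least 2-fold lower were 256 (2.52%), 40 (0.394%) and 166 (1.64%). These counts moved with the choice of cells: without cells that carried markers of other classes they were 16 under E16 and 24 under E18, and with a stricter cell filter (at least 2000 genes and at most 5% mitochondrial UMIs) 503 under E14 and 17 under E16. In each of the 3 libraries, the same 212 genes (2.09%) were higher and the same 9 (0.0887%) lower by that fold.

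Mitotic entry genes, the kinases and cyclins that start mitosis, were higher in members. Of 17 genes listed, 17, 12 and 14 were at least 2-fold higher, with median log2 ratios of 2.76, 1.60 and 2.17, against medians over all genes of 0.00, 0.07 and 0.04. Plk1, the kinase that matures centrosomes and triggers mitotic entry, was at 166, 118 and 148 CPM in members and at 6.59, 6.91 and 5.17 CPM in other progenitors. Aurka, the centrosomal kinase that activates Plk1, was at 153, 109 and 124 CPM against 3.29, 6.54 and 5.29. Every member value of these 2 kinases stood far above its counterpart, and their log2 ratios ran from 3.87 to 5.16. Cdk1, the kinase partner of Ccnb1, was at 519, 325 and 376 CPM against 60.4, 73.8 and 56.6 CPM. Cks2, a small subunit of the Cdk1 complex, was at 461, 508 and 515 CPM against 19.2, 75 and 49.8.

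Chromosome condensation and kinetochore genes were also higher, the first list by less. Of 13 condensation genes measured, 11, 6 and 8 were at least 2-fold higher, with medians of 1.96, 0.94 and 1.42. Smc4, a core condensin subunit, was at 635, 414 and 509 CPM against 113, 141 and 135. Hmgb2, a chromatin protein abundant in cycling cells, was at 1596, 1316 and 1839 CPM against 411, 572 and 581, so other progenitors also had much of it. Of 25 kinetochore genes, 23, 18 and 19 were at least 2-fold higher, with medians of 2.61, 1.49 and 1.97. Cenpe, the kinesin that moves chromosomes to the spindle equator, was at 260, 169 and 230 CPM against 15.4, 21.9 and 22.9. Zwint, a kinetochore scaffold protein, stood lowest by ratio among the examples, at 355, 426 and 437 CPM against 272, 350 and 320.

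Checkpoint and passenger complex genes, which hold anaphase until chromosomes are attached, were at least 2-fold higher in 10, 8 and 10 of 10, with medians of 2.84, 2.09 and 2.53. Aurkb, the kinase of the chromosomal passenger complex, was at 141, 108 and 131 CPM against 6.59, 14 and 11.4. Bub1b, a checkpoint protein that restrains the anaphase-promoting complex, was at 126, 87.5 and 107 CPM against 16.5, 13.9 and 13.9. Of 10 genes of anaphase and mitotic exit, 9, 7 and 8 were at least 2-fold higher. Ube2c, the ubiquitin-conjugating enzyme of the anaphase-promoting complex, was at 744 (exact Poisson 95% interval 712 to 778), 678 (670 to 687) and 700 (686 to 713) CPM in members. In other progenitors it was at 19.2 (13.4 to 26.7), 35.9 (32.8 to 39.3) and 30.8 (27.3 to 34.7) CPM. Its log2 ratios of 5.20, 4.20 and 4.46 were the highest minimum over the libraries among genes of at least 50 CPM outside the rule. Anapc11, a subunit of that complex, had the lowest ratio of the list, at 177, 156 and 174 CPM against 182, 162 and 168.

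Spindle and cytokinesis genes had the highest medians of the role lists. Of 24 spindle genes, 23 were at least 2-fold higher in each library, with medians of 3.69 (median of the genes' counting limits 3.18 to 4.32), 2.57 (2.42 to 2.75) and 3.06 (2.83 to 3.33). Nusap1, which binds spindle microtubules at chromosomes, was at 566, 406 and 553 CPM against 17, 25.5 and 21.3. Prc1, which bundles the midzone microtubules, was at 594, 337 and 501 CPM against 28.5, 24.4 and 33. Both bundling proteins were lowest under E16 among members. Aspm, a spindle pole protein whose loss causes microcephaly, was at 160, 124 and 140 CPM against 9.33, 19.5 and 12.4. Numa1, the spindle gene within 2-fold, was at 116, 96.2 and 98 CPM against 80.7, 66.6 and 57.8. All 10 cytokinesis genes were at least 2-fold higher in each library. Cep55, which organises the final cut between daughter cells, was at 127, 88.4 and 113 CPM against 1.1, 13.3 and 11.2. Hmmr, Ckap2l, Kif11 and Pimreg were also among the 10 highest genes, with log2 ratios from 2.96 to 5.24.

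**Figure D2:**
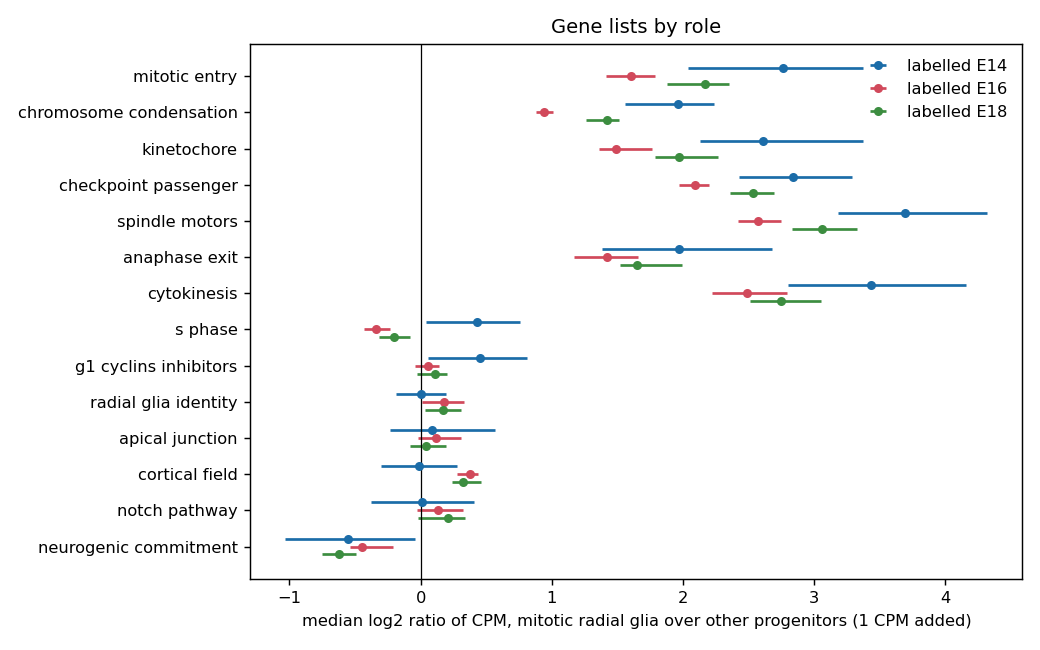
Median log2 ratio of members to other progenitors (x axis, with 1 CPM added) for each list of genes by role (y axis), with a point for each library label and lines from the median of the genes' lower to the median of their upper counting limits. The spindle list stands at 3.69, 2.57 and 3.06, while the S phase list stands at 0.43, -0.34 and -0.20 and the radial glia identity list at 0.00, 0.18 and 0.17.

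S phase genes did not follow the mitotic lists. Of 34 genes of replication, 5 were at least 2-fold higher in members under E14 and 2 at least 2-fold lower under E16, while under E18 1 was higher and 2 lower. The medians were 0.43 (0.04 to 0.76), -0.34 (-0.43 to -0.23) and -0.20 (-0.32 to -0.08). Cdc6, which loads the replicative helicase, was at 12.7, 20.3 and 17.7 CPM in members against 20.3, 62 and 50.5. Mcm6, a helicase subunit, was at 190, 162 and 156 CPM against 231, 311 and 295. Members thus had the lower level of both genes under every label, with overlapping intervals for Cdc6 under E14. Rrm1, a subunit of ribonucleotide reductase, was at 272, 257 and 310 CPM against 98.2, 167 and 150, the other way round. Ung, the uracil glycosylase that works at replication forks, was at 36.8, 38.7 and 30.8 CPM against 100, 145 and 125, and was among the 10 lowest genes by ratio. Under E14 the other progenitors had fewer S phase transcripts per cell than under the other labels: a median of 9 UMIs of the list at an equal depth of 5000 UMIs, against 27 and 21.

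The lowest genes by ratio were mostly not cell cycle genes. Stmn2, a microtubule regulator of young neurons, was at 91.3, 36.7 and 18.6 CPM in members against 335, 102 and 79. Stmn3, its relative, was at 53.7, 37.4 and 27.2 CPM against 143, 57.7 and 47. Without cells that carried markers of other classes, Stmn2 was at 88.6, 20.3 and 17.8 CPM in members against 102, 34.5 and 24.6. Stmn3 in other progenitors was then at 63, 45.7 and 34.5 CPM, down from 143, 57.7 and 47. For Stmn2 the gap between the classes was smaller without those cells, and under 2-fold in every library. With the stricter cell filter the highest of the 3 log2 ratios of Stmn2 was 0.43. Gadd45g, a growth arrest gene of committed progenitors, was at 74.8, 45.5 and 33 CPM against 126, 69 and 122. Sparc, a matrix protein, was at 275, 65.2 and 100 CPM against 518, 101 and 193, and 1 cell held 43.3% of its member UMIs under E14. Without cells that carried markers of other classes it was at 161, 41.6 and 40.7 CPM against 307, 49.1 and 54.3. Sh3bgrl3, Mageh1, Pmm1, LOC100912002 and LOC691995 completed the 10 lowest.

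Members were not alike in their cell cycle transcripts. They were split by the UMIs of the 4 mitotic genes into 10 to 19, 20 to 39, 40 to 79 and 80 or more, which the rule's own genes define, so the pattern is a description. Between the lowest and the highest of these bins, Pcna, the replication clamp, stood at 469 and 114 CPM under E14, at 553 and 223 under E16 and at 561 and 154 under E18. The S phase list stood at 4547 and 2431, at 5512 and 3257 and at 5494 and 2763 CPM. Pcna and the list sum were thus lower in the members with the most mitotic UMIs. Rrm2, a subunit of ribonucleotide reductase, did not follow, at 31 and 56.8, at 46.7 and 42.5 and at 28.9 and 28.5 CPM. Under E14 the S phase list was higher in the second bin, at 5797 CPM, than in the lowest. Cdc20, the activator of the anaphase-promoting complex, stood at 213 and 869 CPM under E14, at 159 and 477 under E16 and at 222 and 616 under E18. Plk1 stood at 32.6 and 316, at 28.9 and 195 and at 35.8 and 248 CPM. Cdc20 and Plk1, which the rule did not use, were therefore higher in the bin with the most rule-gene UMIs in each library, and Pcna was lower there.

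At an equal depth of 5000 UMIs per cell, members held a median of 134, 103 and 120 UMIs of the mitotic lists and of 16.5, 19 and 18 UMIs of the S phase list. Shallower cells left out numbered 4, 5 and 14. The quartiles of S phase UMIs in members were 10 and 31.2, 13 and 27, and 11 and 28. A count of 1 member in each library had more S phase than mitotic UMIs. Other progenitors held 29, 50 and 39 UMIs of the mitotic lists, so they too had some mitotic transcripts. The background was a median of 10, 23 and 18 in non-neural cells. These had at least 10 UMIs of endothelial, mural, microglial and meningeal markers and at most 1 of Sox2, Pax6 and Hes5.

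**Figure D3:**
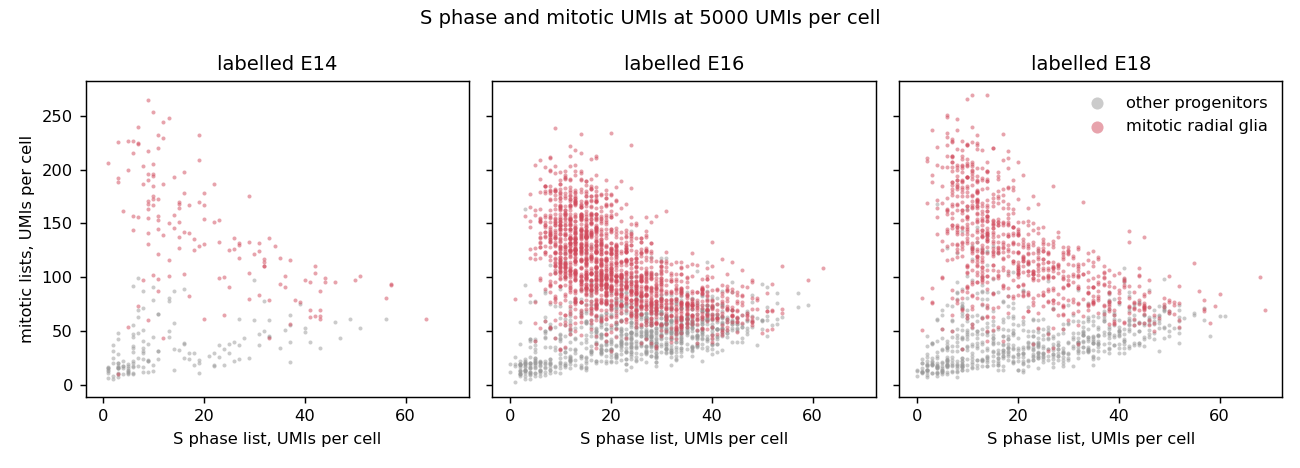
UMIs of the S phase list (x axis, per cell) against UMIs of the mitotic lists (y axis, per cell) for cells thinned to 5000 UMIs, with a panel for each library label and points for members and other progenitors. Members sit at medians of 134, 103 and 120 mitotic UMIs, above other progenitors at 29, 50 and 39, and overlap with them in S phase UMIs.

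Genes of radial glial identity that the rule did not name had medians of 0.00, 0.18 and 0.17 in members over other progenitors, against 0.00, 0.07 and 0.04 over all genes. None of 19 was past 2-fold in any library, which is close to the share over all genes (4.53%, 2.24% and 3.27% higher, 2.52%, 0.394% and 1.64% lower), so the count says nothing particular about the list. Vim, the intermediate filament of radial glia, was at 3894, 2092 and 2635 CPM in members against 5102, 2220 and 2888. Nes, the neural stem cell filament, was at 298, 234 and 371 CPM against 291, 182 and 313. Sox9, a transcription factor of neural stem cells and glia, was at 437, 361 and 531 CPM against 380, 239 and 418. None of 12 genes of the apical junction, which anchors radial glia at the ventricle, was past 2-fold, again close to the share over all genes, and their medians were 0.09, 0.12 and 0.04. The same held for 11 cortical field genes, of which none was past 2-fold, with medians of -0.01, 0.38 and 0.32. Lhx2, which marks the cortical field, was at 553, 693 and 773 CPM against 467, 525 and 621.

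Regulators of G1 went in several directions. Cdkn2d, an inhibitor of Cdk4 and Cdk6, was at 111, 41.7 and 61.2 CPM in members against 24.1, 12.7 and 13.8. Cdkn2c, an inhibitor of the same kinases, was at 98.2, 32.5 and 71.5 CPM against 28, 14.5 and 21.3. These 2 inhibitors were at least 2-fold higher in members in each library, the only genes of 13 in their list that were. Cdkn1b, an inhibitor of cyclin E and Cdk2, was at 253, 158 and 234 CPM against 166, 101 and 138. Cdkn1c, an imprinted inhibitor linked to cell cycle exit, was at 7.67, 29.7 and 40 CPM against 64.2, 37 and 121. Under E14 and E18 the lower member values rested on a few cells: 1 cell held 90.6% and 46.3% of the UMIs of other progenitors there. Without cells that carried markers of other classes, the values were 3.85, 9.64 and 8.43 CPM in members against 4.54, 13.8 and 8.38. At 5000 UMIs per cell it was found in 2.78%, 7.53% and 5.44% of members, 4.14%, 9.85% and 5.84% of other progenitors and 63.9% of non-neural cells. Under E18 the choroid plexus list summed to 12772 CPM in other progenitors and 1596 CPM in members, where 2 cells held 10133 and 6630 of its 23566 UMIs.

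Among Notch pathway genes, 1, 0 and 0 of 12 were at least 2-fold lower in members and none 2-fold higher, counts close to the shares over all genes, with medians of 0.01, 0.13 and 0.21. Notch1, the main receptor of radial glia, was at 355, 195 and 319 CPM in members. Dll1, a ligand that signals from committed cells, was at 6.14, 10.8 and 5.56 CPM in members against 9.88, 18.4 and 9.11 in other progenitors and 46.2, 125 and 58.6 in mitotic Eomes cells. Dner, a Notch ligand of neurons, was the gene past 2-fold under E14, at 4.99 against 18.7 CPM, and other progenitors were at 4.54 CPM there without cells that carried markers of other classes.

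Between labels, members differed in genes known for their timing in cortical progenitors. Of 9989 genes tested in members, 299 (2.99%) were at least 2-fold higher and 752 (7.53%) lower under E16 than under E14. For E18 over E14 these were 183 (1.83%) and 405 (4.05%), and for E18 over E16 280 (2.8%) and 58 (0.581%). These counts moved by over 1.5 times with the CPM minimum and the CPM added: with 5 CPM added, 167, 87 and 141 were higher in the 3 pairs. With the stricter cell filter 342 were higher for E18 over E14, and with a mitotic minimum of 20 UMIs 296 were. The 3 comparisons share libraries, and the medians over all genes were -0.09, -0.03 and 0.07.

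Early radial glia genes, known to decline as the cortex matures, were highest under E16 in 8 of 9 genes with enough counts. Under E16 7 were at least 2-fold higher than under E14, with a median of 1.82 (1.61 to 2.03). Over all 14 listed genes, with no CPM minimum, the median was 1.20 (0.83 to 1.64). Hmga2, a chromatin protein of young stem cells, was at 15.3 (11 to 20.9), 234 (229 to 240) and 26.6 (24.1 to 29.4) CPM in members. Crabp2, a retinoic acid binding protein, was at 7.29, 131 and 60.2 CPM. Igf2bp2, an RNA-binding protein of fetal stem cells, was at 35.7, 147 and 86.8 CPM. The E16 value stood clear of the others for each, and the E14 value was the lowest. For Hmga2 the log2 ratio of E16 over E14 was 3.85 (3.43 to 4.30) and that of E18 over E14 0.76 (0.31 to 1.23). Ccnd1, a G1 cyclin, was at 74.4, 264 and 37.3 CPM and so lowest under E18. Lin28b, which blocks let-7 maturation, had no UMI in members under E14. At 5000 UMIs it was found in 0 of 144 of them, which allows a share of up to 2.08% by 3 cells of that number and 2.53% by the exact interval, against 3.23% and 0.947% under E16 and E18, and these shares were within or near the 2.44% (0.797 to 5.6) of non-neural cells. Dct was the early gene with its highest value under E18, at 28.8, 73.7 and 94.7 CPM.

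Late radial glia genes, known to come up before gliogenesis, were highest under E14 in 18 of 20. Under E16 17 were at least 2-fold lower than under E14, with a median of -2.71 (-2.90 to -2.56). Under E18 13 were at least 2-fold lower than under E14, with a median of -1.63 (-1.77 to -1.47), and 9 at least 2-fold higher than under E16, with a median of 0.94 (0.84 to 1.19). None of the 20 was lowest under E14 and highest under E18 with E16 between them. Aldoc, a glycolytic enzyme of astroglia, was at 609 (579 to 639), 14.7 (13.5 to 16.1) and 199 (192 to 207) CPM. Tnc, a matrix protein of late and outer radial glia, was at 104, 0.169 and 7.11 CPM. Hopx, a homeobox protein of the same cells, was at 450, 117 and 228 CPM. Each was lowest under E16 and its 3 intervals did not overlap. Bcan, a brain proteoglycan, was at 86.7, 0.988 and 24.3 CPM. The factors Zbtb20 and Nfix, which act in late progenitors, were at 352, 62.6 and 231 CPM and at 273, 64.7 and 261 CPM. For Nfix the values under E14 and E18 did not differ beyond counting error (log2 ratio -0.07, -0.18 to 0.05). Nfia and Nfib, which promote gliogenesis, were highest under E18, at 961, 703 and 1173 CPM and at 1011, 677 and 1191 CPM.

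In other progenitors of the same libraries, 14 of the 20 late genes were ordered E14, E18, E16 from highest to lowest, against 17 in members. The early list had the order E16, E18, E14 in 6 of 9 genes in both classes. Among 9 neurogenic genes the order E14, E18, E16 was found for 2 in members and 6 in other progenitors. At least 2-fold higher and lower in them were 373 (3.73%) and 894 (8.95%) of 9989 genes when E16 was set over E14. These counts were 259 (2.59%) and 453 (4.53%) for E18 over E14, and 268 (2.68%) and 68 (0.681%) for E18 over E16. Their median for the early list was 1.81 for E16 over E14 and for the late list -2.77, against 1.82 and -2.71 in members. For the pair E16 over E14, 83.4% of 10151 genes had a ratio in members within 1.5-fold of that in other progenitors, and the shares were 84.9% for E18 over E14 and 94.9% for E18 over E16. Members and other progenitors come from the same libraries, so this is no independent check of the labels. Neurog2 was among the 5 genes with the highest difference between the classes: its log2 ratio of E16 over E14 was 1.35 in members and -0.47 in other progenitors. Fbxo5 and Kif15, genes of mitosis, were among the lowest by that difference, with 150, 150 and 140 CPM and 149, 148 and 164 CPM in members against 17, 68.6 and 39.4 and 8.23, 34.4 and 24.7 in other progenitors.

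**Figure D4:**
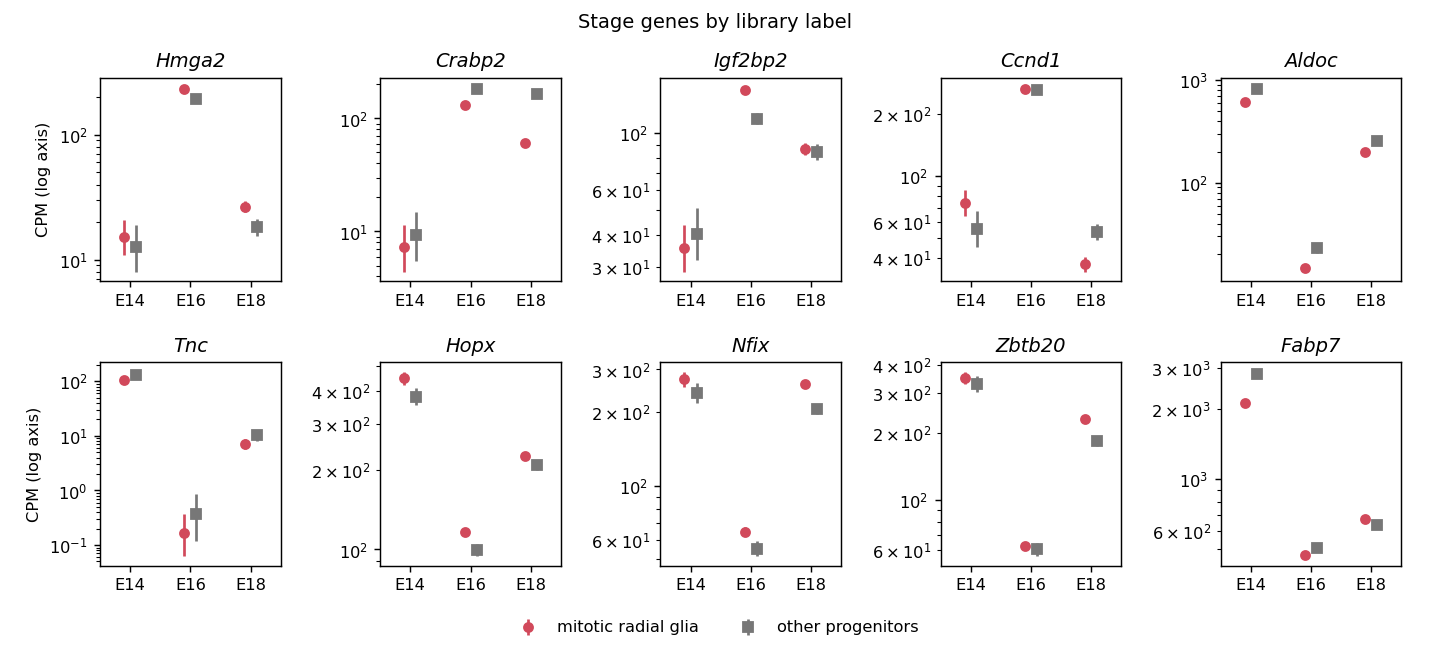
CPM (log axes) of 10 genes known for early or late cortical progenitors, by library label (x axis), for members (circles) and other progenitors (squares), with exact Poisson 95% intervals. Hmga2 in members stands at 15.3, 234 and 26.6 CPM and Aldoc at 609, 14.7 and 199, and both classes follow the same order of labels for these genes.

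Radial glia identity genes also differed between labels, though fewer of them by 2-fold. Of 19, 4 were at least 2-fold lower under E16 than under E14 and 4 under E18 than under E14. Fabp7, the brain fatty acid binding protein, was at 2132, 473 and 672 CPM in members, and Slc1a3, a glutamate transporter, at 321, 63.1 and 122 CPM. Mfge8, a secreted glycoprotein of neural stem cells, was at 569, 41.6 and 193 CPM. All were highest under E14 and lowest under E16. Id4, an inhibitor of differentiation factors, went the other way, at 969, 1797 and 1451 CPM. Emx1 and Emx2, which pattern the dorsal cortex, were at 60.2, 150 and 138 CPM and at 89.4, 201 and 151 CPM, and thus lowest under E14. Ccnd2, the G1 cyclin carried to the basal end feet of radial glia, was at 153, 358 and 511 CPM.

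Mitotic genes past 2-fold between labels in members are read against the shares over all genes: 2.99% higher and 7.53% lower for E16 over E14, 1.83% and 4.05% when E18 was set over E14, and 2.8% and 0.581% for E18 over E16. For E16 over E14, Ccnb2, a cyclin partner of Cdk1, was at least 2-fold lower (331, 146 and 224 CPM), as was Ska1, which ties kinetochores to microtubules (78.2, 33.3 and 63.3 CPM). No spindle gene of 24 was past 2-fold in any pair, a count not far from those shares, and the medians were -0.48, -0.21 and 0.30 for E16 over E14, E18 over E14 and E18 over E16. All 24 were lower under E16 than under E14, and all 24 higher under E18 than under E16. The cytokinesis list gave -0.59, -0.19 and 0.41 and the entry list -0.31, -0.05 and 0.22. For S phase genes the E16 over E14 median was 0.09 (-0.09 to 0.27), and none of 34 was past 2-fold in any pair.

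Several genes picked by the size of their excess under E14 rested on 1 cell. Under E14, Selenop was at 122 CPM, Nrgn at 199, Cldn5 at 259, Slc38a5 at 104, B2m at 160 and Sparcl1 at 65.2. In each case 1 cell held 98.4%, 94.4%, 99.1%, 99.3%, 82% and 75.9% of these UMIs, and Cldn5 and Slc38a5 are known endothelial genes. Without cells that carried markers of other classes, the values under E14 were 0.856, 4.28, 1.71, 0.428, 16.7 and 17.1 CPM in the same order, and Cldn5 is itself in the endothelial list that chose those cells. Apoe, a lipid carrier of glia and microglia, was at 358, 13.9 and 26.9 CPM, of which 1 cell held 79.7% under E14, and at 50.5, 4.15 and 5.33 CPM without cells that carried markers of other classes. When such cells were left out, the 8 genes picked by the same rule were Tnc, Atp1b1, Id1, Apoe, Slco1c1, Mt3, Acot1 and Id3. Mt3, a metallothionein of astroglia, was then at 431, 55.7 and 68.7 CPM. Id1, an inhibitor of differentiation factors that BMP signals induce, was at 116, 12.1 and 8.19 CPM. Slco1c1, a thyroid hormone transporter, was at 77.5, 0.473 and 9.62 CPM. Each of these 3 had its highest member value under E14 with and without the cells left out.

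The genes with the largest excess under E16 were Hmga2, Cntnap2, Ccnd1, Wnt8b, Plagl1, Bcl11b, Gsto1 and Crabp2. Plagl1, an imprinted zinc finger factor, was at 30.7, 118 and 43.1 CPM, and Cntnap2, a cell adhesion protein, at 16.5, 109 and 27.2 CPM. Wnt8b, a signal of the cortical hem, was at 0.384, 54.6 and 19.5 CPM, and at 0.428, 5.78 and 1.59 without cells that carried markers of other classes. Wnt8b is itself in the cortical hem list that chose the cells left out, so the second set of values is lower by construction. Under E18 the genes were Ttr, Draxin, Ephb1, Ltbp4, Fhl1, Mpped2, Galnt16 and Homer2. Mpped2, a phosphodiesterase, was at 299, 323 and 555 CPM, Fhl1 at 94, 94.9 and 169 and Ltbp4, which binds latent TGF-beta, at 55.6, 50.4 and 102. Ttr, the main secreted protein of the choroid plexus, was at 0.384, 610 and 1557 CPM and at 0.428, 10.1 and 30.5 without those cells, which its own choroid plexus list helped to choose. With the limits of the rule set per 10000 UMIs, its excess under E18 turned to a log2 ratio of -1.61 (-1.73 to -1.49).

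Neurogenic commitment genes had somewhat lower values in members than in other progenitors, mostly by less than 2-fold. Of 9 measured, 1 was at least 2-fold lower under E14 and 1 under E18, where 2.52% and 1.64% of all genes were. None was under E16, against 0.394% of all genes. The list medians were -0.55, -0.45 and -0.62, against 0.00, 0.07 and 0.04 over all genes. Neurog2, the proneural factor that starts glutamatergic neurogenesis, was at 37.6 (30.5 to 45.8), 97.5 (94.3 to 101) and 69.8 (65.6 to 74.2) CPM in members. In other progenitors it was at 138 (122 to 156), 99.3 (94 to 105) and 108 (101 to 115) CPM. The intervals overlapped under E16, where members and other progenitors were level, and stood apart under E14 and E18. Hes6, which opposes Hes1, was at 187, 178 and 167 CPM in members against 267, 249 and 253. Btg2, an antiproliferative gene of neurogenic divisions, was at 96.6, 78.6 and 97.8 CPM against 183, 95.1 and 108.

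Insm1 separated the labels more than the classes. Insm1, a zinc finger factor of basal progenitor formation, was at 88.2, 3.61 and 13.8 CPM in members and at 110, 5.8 and 26 in other progenitors. For Insm1 in members the log2 ratio of E16 over E14 was -4.27 (-4.55 to -4.00). The list as a whole did not share that difference: its medians between labels were -0.07, -0.16 and -0.09.

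Shares of cells with a UMI were compared after thinning to 5000 UMIs. Neurog2 was found in 16.7% (11 to 23.8), 29.7% (27.6 to 31.8) and 21.2% (18.5 to 24.1) of members, against 25%, 57.9% and 43.4% before thinning. In other progenitors the shares were 27.6%, 28.7% and 26.8%, and in mitotic Eomes cells 85.7%, 84.8% and 74.6%. Non-neural cells (205 cells over the 3 libraries with a median of 13810 UMIs before thinning) showed it in 2.93% (1.08 to 6.26). Member shares of Neurog2 thus stood above that background and below the mitotic Eomes cells. Dll1 was found in 2.08%, 4.68% and 2.6% of members and in 21.4%, 47.3% and 22.8% of mitotic Eomes cells. Non-neural cells showed it in 0.488% (0.0123 to 2.69), an interval that holds the member shares under E14 and E18. Insm1 was found in 31.9%, 1.67% and 6.51% of members, against 1.46%, so its share under E16 was at the background. Gadd45g was found in 18.1%, 11.7% and 11.4% of members against 10.7% (6.85 to 15.8), so the pooled background was level with the shares under E16 and E18. In the library labelled E18 alone, non-neural cells showed it in 2 of 51 cells (3.92%, 0.478 to 13.5), and in that labelled E16 in 14%.

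**Figure D5:**
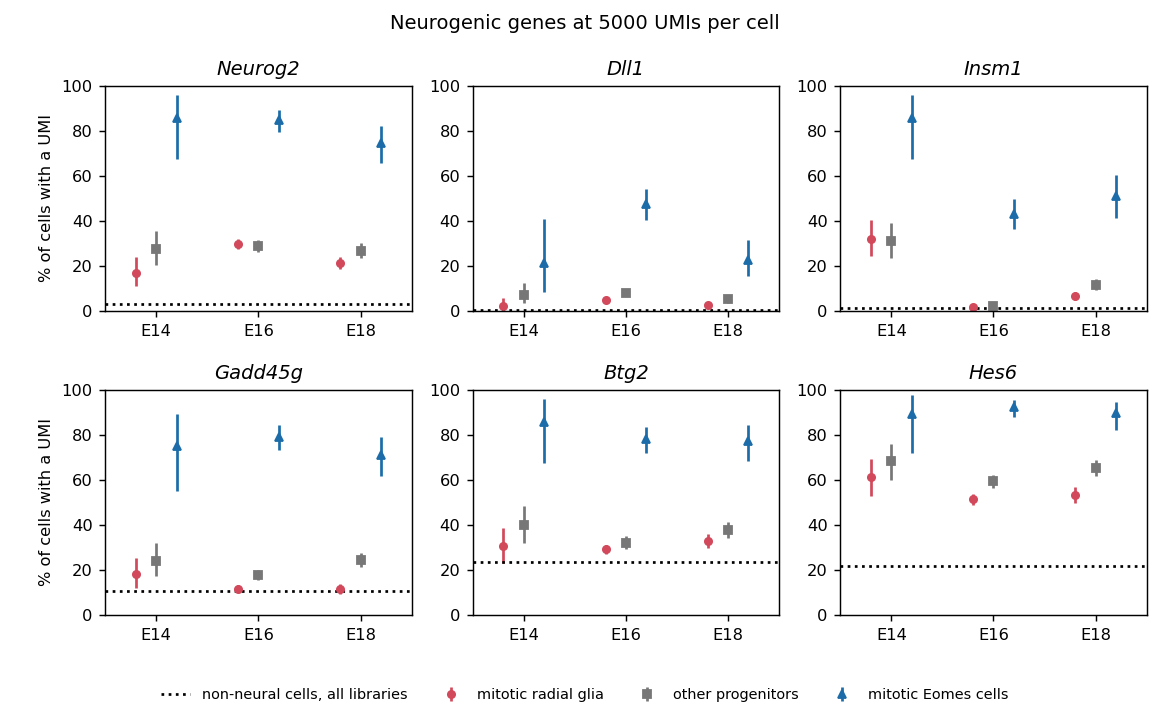
Share of cells with a UMI (y axis, % of cells thinned to 5000 UMIs) of 6 neurogenic genes by library label (x axis), for members (circles), other progenitors (squares) and mitotic Eomes cells (triangles), with exact Clopper-Pearson 95% intervals and a dotted line for non-neural cells. For Neurog2 members stand at 16.7%, 29.7% and 21.2%, below mitotic Eomes cells at 85.7%, 84.8% and 74.6%.

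Mitotic Eomes cells served as the nearest other dividing class. They were 15.9% (10.8 to 22.2), 11% (9.68 to 12.4) and 11.8% (9.85 to 14) of the mitotic cells of both kinds. Of 9912 genes tested, 715 (7.21%), 101 (1.02%) and 150 (1.51%) were at least 2-fold higher in members and 263 (2.65%), 187 (1.89%) and 137 (1.38%) lower. With 28 cells under E14, counts there are the least precise. Eomes itself defines the split, so the neurogenic genes that accompany it are a description. Of 13 neurogenic genes, 12, 13 and 12 were at least 2-fold lower in members, with medians of -2.32, -2.81 and -2.54. Gadd45g was at 576, 1021 and 570 CPM in mitotic Eomes cells and Hes6 at 886, 1256 and 808 CPM, each far above the member values given above. The mitotic lists were even under E16 and slightly higher in members under E14 and E18. The spindle list had medians of 0.56 (0.20 to 0.97), -0.04 (-0.16 to 0.08) and 0.28 (0.09 to 0.45), with 24, 9 and 22 of 24 genes higher in members and none past 2-fold. Of the other mitotic lists, 2 entry genes and 1 gene each of the kinetochore, checkpoint, anaphase and condensation lists were at least 2-fold higher under E14, and none under E16 or E18. Fabp7 was at 1046, 253 and 396 CPM in mitotic Eomes cells, below the 2132, 473 and 672 CPM of members.

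Markers of other cell classes differed between labels among members, and their part in the differences between labels was not tested beyond the values with and without them. Members with at least 3 UMIs of the cortical hem list numbered 0, 245 (13.2%) and 59 (6.87%), and the list summed to 4.22, 126 and 61.8 CPM, with 5 of its 8 markers at 0 under E14. For the choroid plexus list these members numbered 0, 120 and 46, and for the Cajal-Retzius list 0, 36 and 10. Endothelial markers summed to 419, 2.46 and 55.1 CPM, and 1 cell held 99.1% of the Cldn5 UMIs under E14 and another 94.5% under E18. At least 3 UMIs of the neuron list were found in 136 (91.9%), 1364 (73.2%) and 537 (62.5%) members. Other progenitors, which had fewer UMIs per cell, reached that count in 89.5%, 57.6% and 51.8% of cells. By level the neuron list was lower in members, at 448, 307 and 233 CPM against 1127, 443 and 415. At least 3 UMIs of the erythroid list were found in 22 (14.9%), 1823 (97.9%) and 448 (52.2%) members. Globin genes summed to 90.9, 3215 and 185 CPM in members, and embryonic globins made up 1.69%, 70.4% and 27.4% of that. In other progenitors globins summed to 5715, 10976 and 240 CPM, with embryonic shares of 69.6%, 69.1% and 28.8%, so under E14 the classes differed in both values. That E14 sum of other progenitors rested on few cells: 9 of 153 (5.88%) had at least 3 UMIs of the erythroid list, against 14.9% of members. Leaving out every member with at least 3 UMIs of an other-class list other than the neuron and erythroid lists removed 10 (6.76%), 341 (18.3%) and 83 (9.66%) cells. Without them the early list stood at 2.03 and the late list at -2.94 for E16 over E14.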

How the data were processed

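Single-cell RNA was measured in 3 rat libraries, 1 for each label, so no test was run. The deposited matrices hold raw UMI counts per gene and barcode, which the authors made with Cell Ranger 6.0.1 and build mRatBN7.2, per the submitters' processing notes. The protocol text in the labels also describes cultured, multiplexed and sorted human cells, and which of its steps these rat cells went through is not known. All 29772 genes were read under the symbols of the files. Of 361 symbols in the gene lists, 356 are in the files. The members and the lists were chosen with earlier results of these data known.

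UMIs were summed over the cells of a class in a library and scaled to CPM, and 1 CPM was added before log2 ratios, which understates ratios of low genes. Genes needed a mean of 5 CPM. Intervals are exact (Poisson for CPM, Clopper-Pearson for shares, 95%) and cover counting error only. The limits of a ratio combine those of its 2 CPM values. Cells were thinned to 5000 UMIs with seed 1 for shares. Genes outside the lists were named by a rule: of genes of at least 50 CPM, without rule, mitochondrial, globin, Xist and Y-linked genes, the 10 highest and 10 lowest ratios of members to other progenitors in all libraries, the 8 largest excesses per label, and the 5 highest and 5 lowest differences of label ratios between the classes. Some genes that the rule names are not reported here. Doublets were kept. Leaving out the cells with the highest Scrublet scores was an alternative, in which 0, 91 and 18 members were removed, and the caller's own threshold marked 2.43%, 0.0578% and 2.55% of kept cells. The scripts were checked on simulated counts. Scrublet was run in Scanpy 1.11.5. Figures were drawn with matplotlib 3.10.9, and the other steps used scipy 1.17.1, numpy 2.4.6 and pandas 2.3.3 under Python 3.11.15.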

Additional observations from a re-analysis of the deposited data

How the results depend on the processing

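In all, 15 alternatives were run. With 1 library per label, none can show the spread between libraries, and the number of cells limits the 148 members labelled E14. No paired analysis was possible because each label has 1 library. Of 1560 alternative values for 128 named gene ratios, 1531 kept their sign and 29 did not. The looser cell filter (500 genes, 20% mitochondrial UMIs), leaving out high doublet scores and scaling by median of ratios moved no count by more than 1.5-fold and no share or list median out of its counting limits. The early and late lists kept their direction in each alternative computed for them. Causes were not tested except where a setting tests fewer or more genes or cells.

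With the stricter cell filter (2000 genes, 5%), members were 65.7%, 66.3% and 60.1% of progenitors, the late list was -2.96 for E16 over E14 and -1.36 when E18 was set over E14, and the neurogenic list was -0.28 for the first pair. Genes at least 2-fold higher for E18 over E14 in members numbered 342, and genes at least 2-fold lower in members than in other progenitors numbered 503 under E14 and 17 under E16. The sign turned for the highest of the 3 ratios of Stmn2 in members over other progenitors (0.43), for the E14 excess of Selenop (-2.38), Cldn5 (-3.07) and Slc38a5 (-3.84), and for the difference between classes in the E16 to E14 ratio of Tubb3 (-0.45) and Apoe (0.49) and in the E18 to E14 ratio of Nrgn (-0.88).

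With a mitotic minimum of 20, members were 36.2%, 47.2% and 39.9% of progenitors. The early list was -0.88 for E18 over E16, the late list -1.40 and the neurogenic list 0.30 for E18 over E14. Genes higher for E18 over E14 numbered 296, and genes lower in members than in other progenitors 513, 24 and 105. The E14 excess turned for Selenop (-1.47), Nrgn (-0.10), Cldn5 (-2.83) and Slc38a5 (-2.83), and the Apoe differences became 2.26 and 1.56. With a minimum of 5, members were 59.8%, 75.1% and 65.1%, and 64 genes were lower under E16. With limits per 10000 UMIs, the E16 share was 58.9%, the late list -1.29 for E18 over E14, and 71 genes were lower under E18. There the excess turned for Selenop (-0.74), Nrgn (-0.49) and, under E18, Ttr (-1.61), and the class differences became 0.48 and 0.28 for Apoe, -0.54 for Cldn5 and -0.14 for Nrgn.

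Without cells carrying markers of other classes, the early list was 2.03 and the late list -2.94 for E16 over E14, the neurogenic list 0.03 for E18 over E16, and 16 genes under E16 and 24 under E18 were lower in members. The excess turned for Selenop (-0.27), Nrgn (-0.79) and Slc38a5 (-0.20), and class differences became 0.41 and 0.12 for Apoe, -0.74 for Cldn5 and 0.99 for Ttr. Dll3 in members became 0.01 for E18 over E14. With the mean of single-cell CPM, the early list was 2.03 for E16 over E14, the neurogenic list -0.19 for E18 over E16, 76 genes were lower under E18, and the Ttr difference became 0.09.

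Fewer genes are tested at a minimum of 20 CPM: the early list was then 1.26 for E18 over E14, and the neurogenic list -0.29 when E16 was set over E14 and 0.07 for E18 over E16. Genes higher and lower between labels were 119 and 356, 57 and 149, and 127 and 17. In members over other progenitors 272 were higher and 48 lower under E14, 15 lower under E16, and 221 higher and 36 lower under E18. With no minimum, the early list was 1.20 when E16 was set over E14 and -0.54 for E18 over E16, the counts between labels were 832 and 1410, 609 and 921, and 160 lower for E18 over E16. In members over other progenitors they were 844 and 982 under E14, 84 lower under E16 and 528 lower under E18. With 5 CPM added, the late list was -2.33 for E16 over E14, genes higher between labels numbered 167, 87 and 141, 33 were lower for E18 over E16, and 99, 16 and 93 were lower in members. Against other progenitors with at most 2 mitotic UMIs, 398, 147 and 300 genes were lower in members. In cells of 10000 to 30000 UMIs, 54 were lower under E18. At 10000 UMIs per cell, Neurog2 was found in 46.4% of members under E16 and 33.2% under E18.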

Other observations

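Heat shock and immediate early genes, which dissociation is known to induce, gave no common direction between members and other progenitors, with list medians of -0.10, -0.07 and 0.25 in the order E14, E16 and E18. Between labels, the inducible heat shock genes Hspa1a and Hspa1b were at 0.767, 3.25 and 15 CPM and at 3.07, 5.73 and 28.3 CPM in members. Jun was at 344, 186 and 266 CPM. Median mitochondrial shares of members were 5.03%, 3.55% and 4.33%.

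Other Notch genes of members had no common order of labels. Lfng, which modifies Notch receptors, was at 53.7, 17.8 and 31.3 CPM, and Jag1, a ligand, at 20.3, 9.8 and 4.88 CPM. Hey1, a Notch target, was at 32.2, 83.8 and 53 CPM.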
